A study of Felis catus with 6 samples.

Results

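The 7 genes described here encode proteins of the ribosome: FAU, RPS3, RPS15, RPS19 and RPS24 of the small subunit of the cytosolic ribosome, and MRPL12 and MRPL41 of the large subunit of the mitochondrial ribosome. They were taken by gene symbol from a table of 633 genes that the authors had selected as differing between 2 groups of libraries. The libraries are polyA RNA-seq of PETCC2610, a feline kidney cell line. All cells were given DOX, the agent with which the study made them senescent, and the second group, DOX+PeptideE, also received peptide E, a peptide that the series title ties to a Bifidobacterium adolescentis fermentation. Each group has 3 libraries, described as biological replicates without a statement of how the cultures were separated. The labels give neither a dose nor a time and do not spell out DOX, and cells without DOX were not analysed here.

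A ribosome is built from a small subunit, which reads the mRNA, and a large subunit, which joins the amino acids. The cytosolic ribosome makes nearly all proteins of a cell, its subunits are assembled in the nucleolus on ribosomal RNA, and its proteins come from some of the most abundant mRNAs. The mitochondrial ribosome makes the few respiratory chain subunits encoded in mitochondrial DNA, but its own proteins are encoded in the nucleus and imported. Ribosome assembly and translation are among the processes that change when cells enter senescence.

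The 7 genes were chosen because they stand in this table, which rests on the authors' comparison of the same 6 libraries. Their difference between the groups is therefore given as a description without a test. In the authors' deposited table no unadjusted p exceeds 0.0498 and no gene differs by less than 1.5-fold. The authors' deposited table lists all 7 as lower with peptide E, as it does 340 of its 633 genes (53.7%). RPS3 and RPS15 lie just inside the fold threshold, 1.51-fold lower each in the authors' deposited table, and genes just outside it were not analysed here. The authors' deposited table gives RPS24 an unadjusted p of 0.0302 and an adjusted p of 0.140. It gives the other 6 adjusted p-values of 0.00195 (RPS19) to 0.0351 (MRPL41), so 6 of 7 were under 0.05, against 45.0% of the genes listed lower. Of these 340 genes, 227 had a mean value over the 6 libraries under 10, where none of the 7 falls. The share at the level of the 7 genes is not given here.

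The library columns hold a normalized expression value per gene, whose unit the header does not state. In 115 listed genes all 6 values are under 1, so they are not read counts, and the table's name refers to RSEM, whose other outputs, TPM and FPKM, are both scaled per transcript length. If the values are one of these, levels of different genes are per length. Depth per library is unknown. Sums over the 633 genes ranged from 25083 to 39465 and do not measure depth.

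On this scale of expression values the small-subunit genes were among the highest in the table. RPS19, RPS24 and RPS15 ranked 1, 2 and 3 by mean value over the 6 libraries, RPS3 ranked 5 and FAU ranked 7. MRPL12 ranked 31 and MRPL41 ranked 113. The median of the overall means was 3403 for the 5 small-subunit genes, and the overall means of MRPL12 and MRPL41 were 118 and 17.3. The 5 small-subunit genes together made up 43.0% to 47.1% of the summed values of all listed genes in each library. This share was 46.0% ± 0.573 (SD, n = 3) with DOX and 45.0% ± 2.04 (SD, n = 3) with peptide E. It refers to the listed genes and not to the whole library.

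RPS19, a protein needed to mature the small subunit and mutated in Diamond-Blackfan anaemia, had the highest overall mean. Its expression values were 5429, 4548 and 4972 in DOX replicates 1, 2 and 3, and 4373, 3642 and 3111 in the peptide E replicates. All 3 DOX libraries lay above all 3 peptide E libraries, with a gap of 175 between the closest. The group means were 4983 ± 440 and 3709 ± 634 (SD, n = 3 each), a log2 difference of -0.44 with a limma standard error of 0.17. Log2 differences are of log2(value + 1), peptide E over DOX. In these bulk libraries fewer cells of a type and less RNA per cell cannot be told apart. Normalized values also give no absolute amount of RNA, so a lower value need not be a loss.

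RPS24, another small-subunit protein mutated in Diamond-Blackfan anaemia, had values of 4602, 4423 and 5929 with DOX and 4530, 3516 and 2821 with peptide E. DOX replicate 3 stood above the other DOX libraries, and peptide E replicate 1 lay between DOX replicates 1 and 2, so the groups overlapped. The means were 4985 ± 823 and 3623 ± 859 (SD, n = 3 each), a log2 difference of -0.47 with a standard error of 0.20.

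RPS15, a protein of the head of the small subunit, had values of 4013, 3472 and 3942 with DOX and 3513, 2929 and 2549 with peptide E. RPS3, which lines the entry of the mRNA channel and also has roles in DNA repair and NF-kB signalling, had 2409, 2054 and 2335 with DOX and 2193, 1700 and 1469 with peptide E. In both genes peptide E replicate 1 lay above DOX replicate 2, and the other peptide E libraries lay below every DOX library. RPS15 averaged 3809 ± 294 with DOX and 2997 ± 486 with peptide E (SD, n = 3 each), a log2 difference of -0.36 with a standard error of 0.17. RPS3 averaged 2266 ± 187 and 1787 ± 370 (SD, n = 3 each), a log2 difference of -0.36 with a standard error of 0.17.

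FAU encodes a ubiquitin-like protein fused to the ribosomal protein S30, which is cut free after translation. Its values were 1358, 1148 and 1248 with DOX and 1148, 887 and 842 with peptide E. The lowest DOX library and the highest peptide E library held the same value, 1148.14, so the groups touched without crossing. The means were 1251 ± 105 and 959 ± 165 (SD, n = 3 each), a log2 difference of -0.39 with a standard error of 0.16.

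MRPL12 belongs to the flexible stalk of the mitochondrial large subunit, where translation factors dock. Its values were 144, 110 and 146 with DOX and 127, 95.8 and 81.9 with peptide E. DOX replicate 2 stood below the other DOX libraries and below peptide E replicate 1, so the groups overlapped. The means were 134 ± 20.3 and 101 ± 22.9 (SD, n = 3 each), a log2 difference of -0.41 with a standard error of 0.19.

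MRPL41, a large-subunit protein of the mitochondrial ribosome, had values of 20.1, 20.0 and 20.8 with DOX and 17.2, 15.2 and 10.3 with peptide E. The DOX libraries were close together, every peptide E library lay below them, and peptide E replicate 3 was the lowest. The means were 20.3 ± 0.412 and 14.2 ± 3.52 (SD, n = 3 each), a log2 difference of -0.51 with a standard error of 0.19. This was the largest difference among the 7 genes with all libraries and a pseudocount of 1. The rank depended on the setting. With a pseudocount of 5 MRPL41 had -0.42, against -0.47 in RPS24 and -0.44 in RPS19. Without DOX replicate 1 or 2 RPS24 differed more (-0.53 and -0.55, against -0.52 each). Without peptide E replicate 3 RPS19 did (-0.316 against -0.315).

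**Figure D1:**
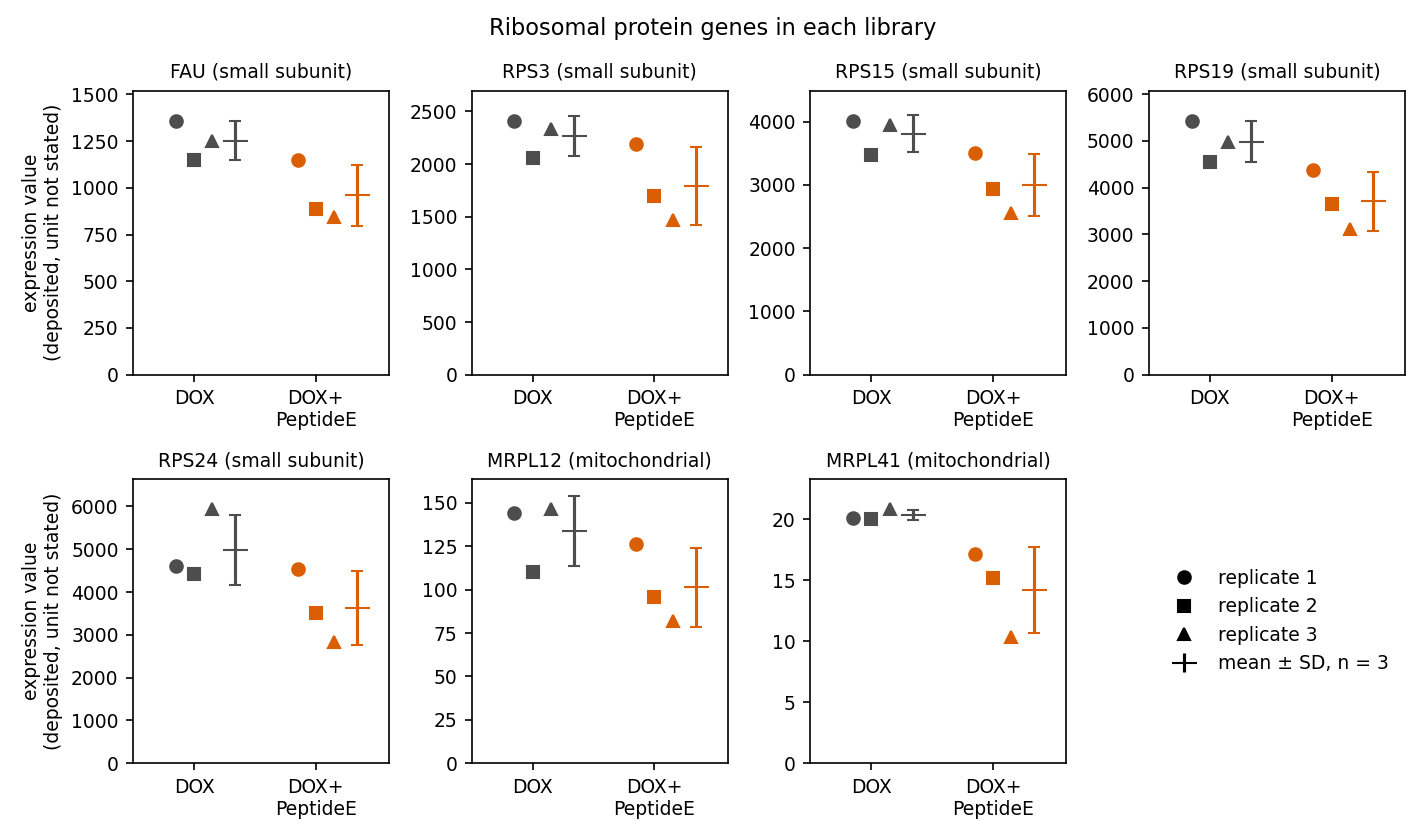
Expression values (deposited scale, unit not stated, axes from 0) of the 7 genes in the 3 DOX and the 3 DOX+PeptideE libraries, with the replicate shown by the symbol and the mean ± SD (n = 3) at its side. RPS19 and MRPL41 have no overlap between the groups, FAU has 1 shared value, and in the other 4 genes peptide E replicate 1 lies above DOX replicate 2.

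All 3 DOX libraries lay above all 3 peptide E libraries in 2 of the 7 genes, RPS19 and MRPL41. The same held for 60.9% of the 340 genes listed lower and for 32.7% of all listed genes. Since the authors' selection used this contrast, nothing is read from the share. In 4 of the 7 genes peptide E replicate 1 lay above DOX replicate 2, against 20.6% of the genes listed lower. Of those 340 genes, 227 had a mean under 10, and the share at the level of the 7 genes is not given here. The crossing is not particular to ribosomal protein genes. Of the genes named below for the closest profiles, all but NHP2 and ZNF593 had it, such as NDUFA13 (581 against 548). Without DOX replicate 2, or without peptide E replicate 1, all 7 genes had groups that did not overlap, against 85.0% and 79.4% of the genes listed lower. Without any other single library the count was 2.

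The fold on the deposited values was smaller than the fold in the authors' deposited table. The peptide E mean was lower by 21.1% in RPS3, 21.3% in RPS15, 23.4% in FAU, 24.1% in MRPL12, 25.6% in RPS19, 27.3% in RPS24 and 30.1% in MRPL41. None of the 7 ratios of deposited means reached 1.5-fold lower, against 43.8% of the genes listed lower and 23.5% of all listed genes. For the 7 genes the authors' deposited table holds log2 fold changes from -0.76 (MRPL41) to -0.59 (RPS3). The 2 scales lay apart by a median of 0.27 (log2) over 196 listed genes whose group means were both 5 or more, with the authors' deposited table the lower. The order of the 7 genes was the same on both of these scales, with RPS3 and RPS15 changed least and MRPL41 most.

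Scaling moved the size of the difference in all 7 genes and the sign in none. Centring each library on the median of the listed genes, which were selected on this same contrast, shifted all log2 differences by -0.30. The difference was then -0.65 in RPS15, which differed least, and -0.81 in MRPL41, which differed most. After this centring 6 of 7 genes, all but MRPL12, had groups that did not overlap, against 85.6% of the genes listed lower that entered the fit. With library factors fitted to the fold changes of the authors' deposited table, 5 of 7 genes did, all but RPS3 and MRPL12, against 77.9% of the genes listed lower.

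**Figure D2:**
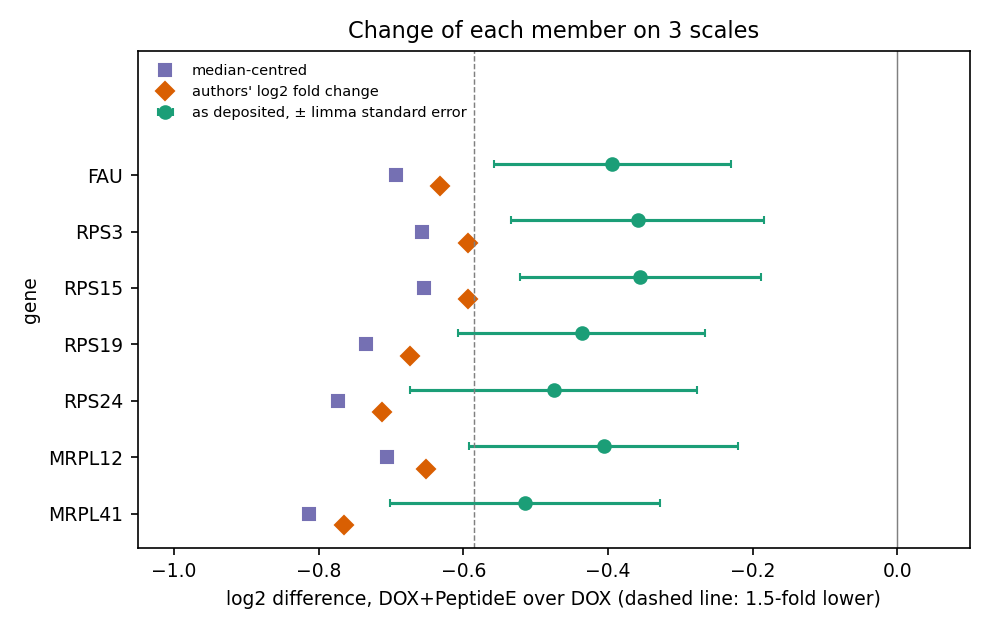
Log2 difference of each gene between DOX+PeptideE and DOX as deposited (circle, with the limma standard error), after median-centring (square) and as the log2 fold change in the authors' deposited table (diamond). The circles lie between -0.51 and -0.36, to the right of the dashed line at 1.5-fold lower, and the squares and diamonds lie to its left.

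The classes differed little in their change. The median log2 difference was -0.39 over the 5 small-subunit genes and the mean was -0.46 over the 2 mitochondrial genes, which differed from each other (-0.41 and -0.51) by more than the classes did. Over the 499 listed genes that entered the fit the median was -0.22, and over the 257 of them listed lower it was -0.41. The balance of the classes within a library was taken as the mean log2(value + 1) of the mitochondrial genes minus that of the small-subunit genes, which leaves out the scale of the library apart from the pseudocount. It was -5.85, -5.84 and -5.82 in the DOX libraries and -5.87, -5.83 and -5.99 in the peptide E libraries. Peptide E replicate 3 stood below the rest, and the other 5 libraries lay close together. The group means were -5.84 ± 0.0121 and -5.89 ± 0.0848 (SD, n = 3 each), a difference of -0.06 that is smaller than the spread between the peptide E libraries. Without peptide E replicate 3 the difference was -0.0094. With a pseudocount of 5, which brought the log2 difference of MRPL41 to -0.42, it was -0.00065. Other settings gave larger differences: -0.073 with a pseudocount of 0.1, -0.065 from ratios of arithmetic means and -0.091 without peptide E replicate 2.

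All 7 genes placed the libraries in the same order within each group, apart from the top place with DOX. DOX replicate 2 was the lowest DOX library in 7 of 7 genes, against 53.5% of the genes listed lower. Among the peptide E libraries, replicate 1 was the highest and replicate 3 the lowest in 7 of 7, against 32.6%. Both orders together were present in 25.6% of the genes listed lower, and in 78.4% of the 37 listed genes whose overall mean was 100 or more, of which 6 are ribosomal protein genes named here. The shared order is therefore common among listed genes of this level.

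Relative to the DOX mean, the 5 small-subunit genes lay on average at -0.12, -0.44 and -0.65 (log2) in peptide E replicates 1, 2 and 3, and the mitochondrial genes at -0.15, -0.43 and -0.80. The median over the 113 genes listed lower with a mean of at least 10 was -0.23, -0.45 and -0.59. In peptide E replicate 1 the small-subunit average thus lay closer to the DOX mean than this median, and in replicate 3 farther from it. RPS24 and MRPL41 lay lowest in replicate 3, at -0.81 and -0.91. All 7 genes had a larger SD of log2(value + 1) with peptide E than with DOX, as did 73.3% of the listed genes that entered the fit. The median SD of the 7 genes was 0.122 with DOX and 0.292 with peptide E, beside 0.112 and 0.251 over the 148 listed genes with a mean of at least 10. MRPL41 had the smallest SD with DOX, 0.0277, and the largest with peptide E, 0.356.

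**Figure D3:**
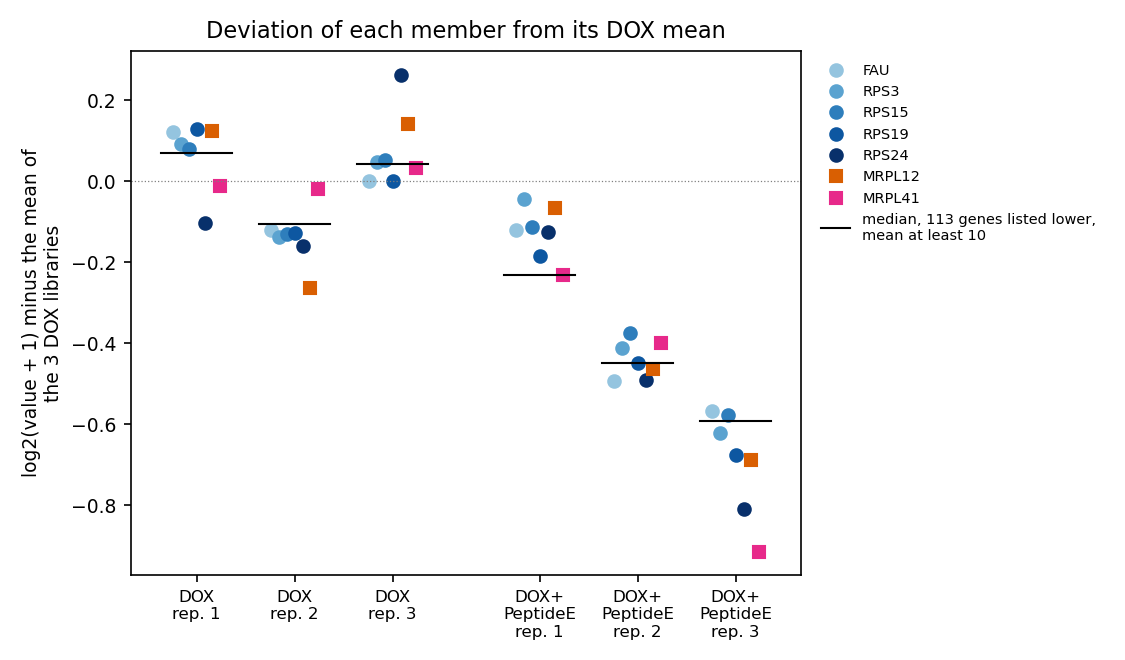
Log2(value + 1) of each gene in each library minus the mean of the 3 DOX libraries (circles, small subunit; squares, mitochondrial), with black bars for the median of 113 genes listed lower with a mean of at least 10. Among the peptide E libraries the points are highest in replicate 1 and lowest in replicate 3, RPS24 stands apart in DOX replicate 3 at 0.26, and MRPL41 is the lowest point at -0.91.

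The small-subunit genes other than RPS24 kept nearly fixed ratios to one another. The within-group SD of a log2 ratio between a pair of genes, pooled over both groups, was 0.0376 to 0.0613 for the 6 pairs among FAU, RPS3, RPS15 and RPS19. The same SD of single genes was 0.183 (RPS15) to 0.291 (RPS24), so most of the spread of these 4 genes was shared between them. The ratio of RPS15 to RPS19 had the smallest SD of all 21 pairs. The 4 pairs of RPS24 with the other small-subunit genes had SDs of 0.152 to 0.199. Most of this came from the DOX group, where RPS24 was high in replicate 3 alone and the ratio of RPS19 to RPS24 had an SD of 0.248, against 0.0960 with peptide E.

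The mitochondrial genes were not tied more closely to each other than to the small subunit. The ratio of MRPL12 to MRPL41 had an SD of 0.185. The 10 pairs between the classes had SDs of 0.0817 (RPS3 and MRPL12) to 0.178 (FAU and MRPL41), with a median of 0.135. For comparison, 465 pairs of other listed genes with a mean of at least 100 had a median SD of 0.135 and a range of 0.0258 to 0.346. No correlation over the 6 libraries is given, because they fall into 2 groups of 3.

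**Figure D4:**
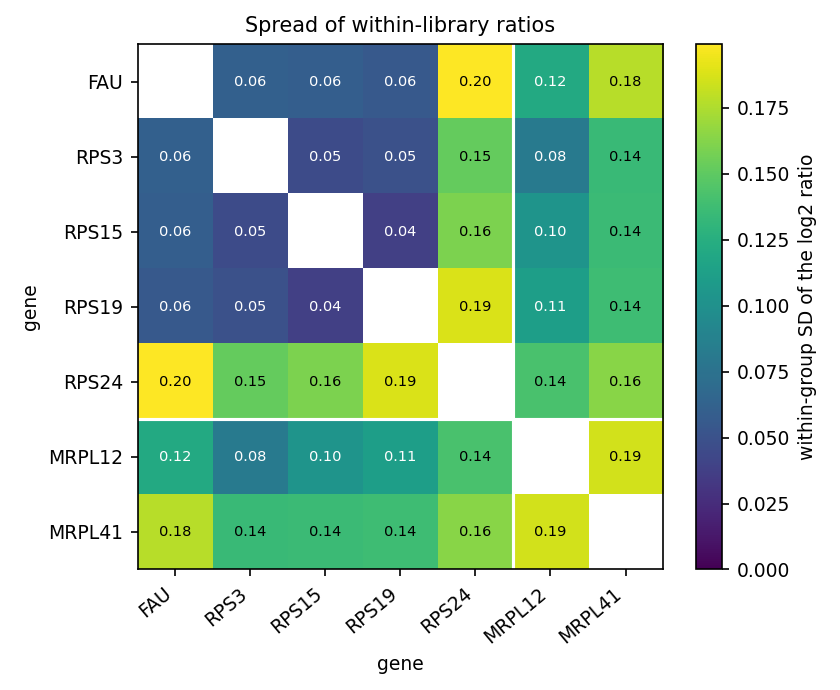
Within-group SD of the log2 ratio of each pair of genes, pooled over the DOX and the DOX+PeptideE libraries (darker is smaller), with white lines between the small-subunit and the mitochondrial genes. The 6 pairs among FAU, RPS3, RPS15 and RPS19 form the dark block, at 0.0376 to 0.0613, and RPS24 and MRPL41 have lighter rows.

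The 6 most abundant of the 7 genes had the direction of every listed gene at their level. All 37 listed genes whose overall mean was 100 or more were listed lower (100%), among them the 5 small-subunit genes and MRPL12. Of the 111 genes with a mean of 10 to 100, where MRPL41 falls, 68.5% were listed lower, and of the 485 under 10, 46.8%. The median log2 difference of the 37 highest genes was -0.43, beside -0.41 for the 7 ribosomal protein genes.

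**Figure D5:**
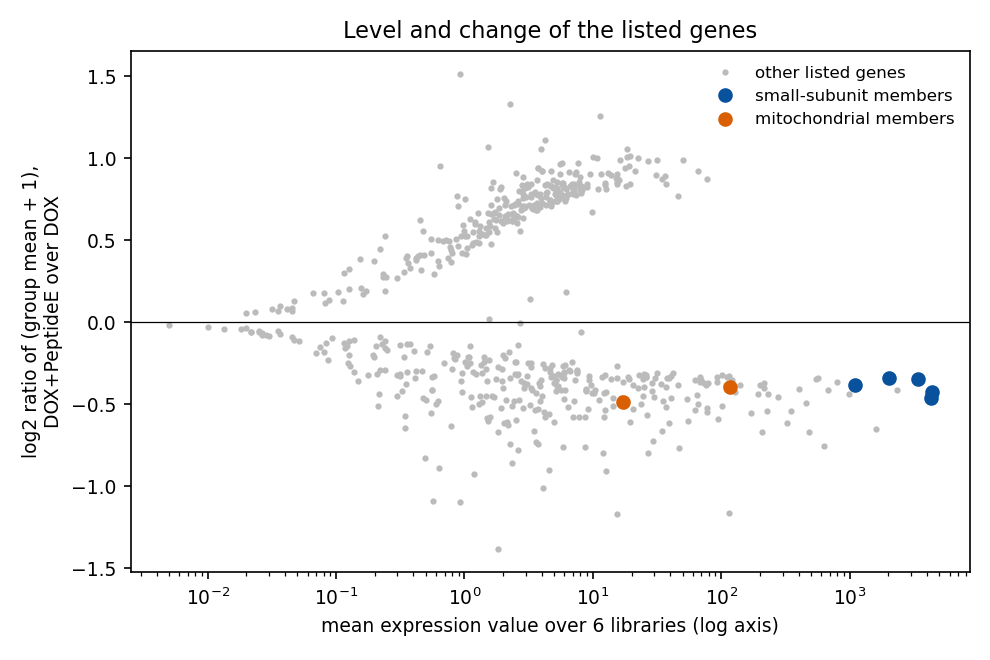
Mean expression value over 6 libraries (log axis) against the log2 ratio of (group mean + 1), DOX+PeptideE over DOX, for the listed genes (grey) and the ribosomal protein genes (blue, small subunit; orange, mitochondrial). Above a mean of 100 all points lie below 0, and the 5 small-subunit genes are at the right end among them.

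Genes whose profile over the 6 libraries lay closest to the small-subunit average were sought among 124 other listed genes with a symbol and a mean of at least 10. Profiles were compared by the root mean square difference of log2 values after each gene was centred on its DOX mean. The 5 closest were NDUFA13, a subunit of respiratory complex I (0.0353), MYL6B, a myosin light chain (0.0358), ATP5PD, a subunit of ATP synthase (0.0388), NHP2, a protein of small nucleolar RNPs (0.0478), and IMP4, a protein of the U3 small nucleolar RNP that processes ribosomal RNA (0.0482). The median over all candidates was 0.202, and the small-subunit genes themselves lay at 0.0384 (RPS3) to 0.124 (RPS24) from their own average. NDUFA13 had mean expression values of 612 ± 55.6 with DOX and 482 ± 92.2 with peptide E, and IMP4 had 33.9 ± 3.21 and 26.6 ± 4.85 (SD, n = 3 each). Closest to the average of MRPL12 and MRPL41 were S100A6, a calcium-binding protein (0.0524), ZNF593 (0.0536), the cytokine gene IL18 (0.0565), MICOS13, of the mitochondrial cristae complex (0.0638), and DNPH1, a nucleotide hydrolase (0.0784). MRPL12 and MRPL41 were each 0.0848 from their own average, a distance that is necessarily equal for 2 genes.

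By lists of symbols, few other genes of the translation machinery were found among the listed genes. The share of all annotated genes that were listed is not given here, so nothing is read from these counts. A RefSeq gene table of the cat holds 29 protein-coding symbols of the cytosolic small subunit by the symbol rule used, of which the 5 described here were listed, and 50 of the large subunit, of which none was listed. Of 81 symbols of the mitochondrial ribosome, MRPL12 and MRPL41 were listed. Since nothing outside the table was analysed here, whether the other ribosomal protein genes differed is not known. None of 14 further genes with the oligopyrimidine start typical of ribosomal protein mRNAs was listed, nor any of 14 genes of mitochondrial ribosome assembly and mitochondrial RNA. Of 66 translation factors EEF1A2, an elongation factor, was listed as lower, with values of 2.51, 1.87 and 2.85 with DOX and 1.54, 1.75 and 1.47 with peptide E. Of 12 genes of the mTOR pathway, which controls the translation of ribosomal protein mRNAs, TSC1 was listed as higher. TSC1, part of the complex that restrains mTOR, had 2.49, 2.84 and 2.42 with DOX and 3.75, 4.74 and 5.78 with peptide E. Of 123 symbols in the list of ribosome assembly and RNA polymerase I, WDR62 and WDR87 were listed as higher. Both entered by their shared WD-repeat prefix, and WDR62 is a centrosomal protein rather than an assembly factor. That list lacks NHP2 and IMP4, the small nucleolar RNP proteins among the closest profiles, and may lack other listed genes with such roles. NHP2 and IMP4 were both listed as lower, with authors' log2 fold changes of -0.68 and -0.61.

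Other ribosome-related loci in the table, picked by description after their values were seen, did not all share the direction. A locus of 18S ribosomal RNA, LOC111557932, the RNA of the small subunit, had 2.12, 2.29 and 2.20 with DOX and 3.53, 4.80 and 4.97 with peptide E. Its mean was higher with peptide E, while all 7 ribosomal protein genes had lower means. Its lowest peptide E value was in replicate 1, where the 7 genes had their highest peptide E values. TSC1 and WDR62, also listed as higher, likewise had their lowest peptide E values in replicate 1 (3.75 and 4.87). The share of genes listed higher with this order is not given here, so nothing is read from it. The mean of the locus was 3.32, and of the 485 listed genes under 10 only 46.8% were listed lower. In polyA libraries ribosomal RNA is a remnant of the capture, and its part in the values of the 7 genes was not tested. LOC109492345, described as L34-like, had means of 38.1 ± 6.93 with DOX and 29.1 ± 4.78 with peptide E (SD, n = 3 each), and LOC101080284, described as L29-like, had 1.81 ± 0.460 and 1.19 ± 0.0300. LOC109502478, described as S7-like, was listed as higher at 0.0633 and 0.163. The adjusted p-values in the authors' deposited table were 0.0425 for the ribosomal RNA locus LOC111557932, 0.136 for the L34-like, 0.0972 for the L29-like and 1 for the S7-like locus. Ribosomal protein genes have many processed copies in mammalian genomes, so reads may be shared with such copies and the values of the 5 cytosolic genes are uncertain to that extent.

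Of 12 genes looked for as markers of kidney epithelium, 5 were listed (KRT18, KRT7, KRT19, AQP1 and HAVCR1), all as lower with peptide E. Listed lower were 53.7% of all listed genes and 100% of those with a mean of 100 or more, where KRT18 and KRT7 fall. Under a mean of 10, where KRT19, AQP1 and HAVCR1 fall, the share was 46.8%. None of 14 markers of fibroblasts, endothelium and immune cells was listed. KRT18, the highest of these markers, averaged 589 ± 70.3 with DOX and 369 ± 63.0 with peptide E (SD, n = 3 each).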

How the data were processed

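The 6 polyA RNA-seq libraries (DOX and DOX+PeptideE, 3 each) were grouped by their titles. FastQC 0.11.9 and fastp 0.19.5 were used, per the submitters' processing notes. Not given in the sources used here are the aligner, genome build, annotation and any use of strand. The authors deposited a table of 633 genes with a normalized expression signal per library, fold changes as a ratio, log2 fold changes and p-values, per the file headers. The authors' group columns equal the means of the library values. Depth is unknown, so no counting error is given.

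The 7 genes and the gene lists were chosen with earlier results of these data known. Values were used as log2(value + 1). Differences and standard errors came from limma 3.58.1 in R 4.3.3, fitted on the 499 listed genes that averaged 1 or more in either group, with a trend of variance on mean. It was tested on simulated data. No p was computed for the 7 genes, since the table was selected on this contrast. Genes named are the 7, listed members of the lists, and the 5 closest profiles per class. All 633 symbols were found in RefSeq assembly F.catus_Fca126_mat1.0, used for names and neighbours. Its coordinates are not printed, since the authors' build is not named. Protein length and sequence features, which had been planned, were not used here.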

Additional observations from a re-analysis of the deposited data

How the results depend on the processing

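The log2 differences of the 7 genes kept their negative sign in all alternatives: pseudocounts of 0.1 and 5, no filter, median-centring, ratios of arithmetic means, the replicate block, fitted library factors, and 1 library fewer. The fitted factors were chosen after seeing the data. The sizes rested on the scale. Median-centring, on listed genes selected on this contrast, gave -0.69 for the small-subunit median, -0.76 for the mitochondrial mean and 6 genes without overlap. The fitted factors gave -0.67 for the small-subunit median, a median within-group SD of 0.34 against 0.23, and 5 genes without overlap. They gave the authors' log2 fold changes within 0.05 in 184 of the 196 genes used, on which the table had been selected, and are no independent check.

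With 1 library fewer the small-subunit median was -0.53 to -0.31, the mitochondrial mean -0.62 to -0.29, the balance of the classes -0.091 to -0.0094, the median SD 0.145 to 0.273, and 2 to 7 genes had no overlap. The replicate block left the small-subunit median at -0.39 and the mitochondrial mean at -0.46, as it must in a balanced design. Deviations of same-numbered libraries from their group means had r of 0.34, -0.042 and -0.092 across 499 genes. Libraries with different numbers had r of -0.29 to 0.36. With 3 libraries a group, these values cannot tell whether the numbers pair the libraries. Precision is limited by 3 libraries a group and the unknown depth.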

Other observations

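Among the 4 genes nearest to each of the 7 in RefSeq, DLG5, near RPS24, was the only listed gene. DLG5, a scaffold gene, was listed as higher, with expression values of 3.73, 3.95 and 3.41 with DOX and 4.87, 7.06 and 8.55 with peptide E, the opposite direction to RPS24. RPS3 was the only one of the 7 that overlapped other annotated genes, which were 2 small nucleolar RNA loci. The equal FAU values in DOX replicate 2 and peptide E replicate 1 were 1 of 6 equal values between these libraries over 633 genes, the most of any pair of a DOX and a peptide E library, while the other such pairs shared 1 to 5.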
